A study of Mus musculus with 6 samples.

Results

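Granzymes are serine proteases that cytotoxic T cells and natural killer cells store in granules together with the pore-forming protein perforin (Prf1) and release onto a target cell. Granzyme A (Gzma) cuts after basic residues and granzyme B (Gzmb) after aspartate, and both have counterparts in many mammals, whereas Gzmc, Gzmd, Gzme, Gzmf and Gzmg are rodent genes that lie beside Gzmb and are known mainly from activated killer lymphocytes. The proenzymes are activated by cathepsin C (Ctsc), held in granules by the proteoglycan serglycin (Srgn) and inhibited by serpins such as Serpinb9.

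The description below covers 7 of the 33696 genes in the count matrices, namely Gzma (ENSMUSG00000023132), Gzmb (ENSMUSG00000015437), Gzmc (ENSMUSG00000079186), Gzmd (ENSMUSG00000059256), Gzme (ENSMUSG00000022156), Gzmf (ENSMUSG00000015441) and Gzmg (ENSMUSG00000040284), matched by symbol. The members were chosen by their measured levels and their co-detection with Pdgfra and Ptprc in these libraries, in particular the level in fibroblasts at 7 days post injury (dpi) beside that in lymphocytes, so their levels are given as a description. The matrices hold 10 granzyme genes in all, and the other 3 (Gzmk, Gzmm and Gzmn) are shown only for comparison.

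Cells came from the Achilles tendon of mice carrying a tamoxifen-inducible Cre recombinase at Gli1 (Gli1-CreERT2) and the Ai9 tdTomato reporter. All groups shared both alleles and received tamoxifen, in the injured groups before tenotomy, the cutting of the tendon, which leads to heterotopic ossification in this model. Cells were sorted into reporter-positive (Gli1+) and reporter-negative (Gli1-) fractions from uninjured tendon and at 7 and 21 dpi, so that each of the 6 conditions is 1 droplet 3′ RNA library. Per the labels each time point pooled 8 mice (24 in all, both sexes in equal number, age not given), and cells cannot be assigned to mice. The Y-linked and Xist transcripts given below do not show equal numbers of both sexes. By design the reporter marks descendants of cells that expressed Gli1 when tamoxifen was given and not the present transcript. Gli1+ and Gli1- below name the sorted fraction, and whether each cell of a fraction carried the reporter was not tested. With 1 library per condition there is no replicate and no test, and every interval below is a 95% interval for counting error only.

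After filtering, 57767 cells remained, from 7057 to 10882 per library, with totals of 53589094 to 107739968 unique molecular identifiers (UMIs, single captured RNA molecules) and medians of 4297 to 9770 UMIs per cell. Libraries stood apart in their cell content. In the Gli1+ uninjured library 3942 of 7057 cells had a UMI of Ptprc, the pan-leukocyte gene encoding CD45, against 3 to 29 cells in each of the other 5. Cells with Y-linked but no Xist UMIs made up 70.9% and 70.5% of cells at 7 dpi (Gli1+ and Gli1-) and 0.112% and 0.0552% at 21 dpi. Those with Xist but no Y-linked UMIs made up 0.0108% and 0.0101% at 7 dpi and 92.7% and 90.6% at 21 dpi. Sex and time after injury therefore cannot be told apart there, and these shares differ from the equal numbers of both sexes in the labels. In uninjured tendon the first kind of cell made up 15.03% and the second 68.8% in Gli1+, against 59.5% and 0% in Gli1-. The sexes thus also differ between uninjured and 7 dpi Gli1+ cells and between the uninjured sorts, so which mice each library holds is uncertain. Between 92 and 134 kept cell barcodes of each library also occurred in another one, and these cells held at most 29 UMIs of Gzmc to Gzmg in a library.

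Fibroblasts were taken as cells with at least 1 UMI of Pdgfra, the platelet-derived growth factor receptor that marks mesenchymal fibroblasts, and no UMI of Ptprc. They numbered 1607, 4786 and 5254 in the Gli1+ libraries (uninjured, 7 and 21 dpi) and 5106, 6571 and 5521 in the Gli1- libraries. Lymphocytes for comparison were Ptprc-positive, Pdgfra-negative cells with UMIs of at least 2 lymphoid markers, of which the Gli1+ uninjured library gave 3236 and each other library 9 or fewer. Levels are counts per 1e+06 UMIs of the cell group (CPM).

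In the RefSeq annotation of GRCm38.p6, Gzme (56117619 to 56120625), Gzmd (56129556 to 56132603), Gzmg (56156581 to 56159579), Gzmn, Gzmf (56205263 to 56211407), Gzmc (56231397 to 56241647) and Gzmb (56258836 to 56262334) followed each other on the minus strand in a 145 kb stretch of chromosome 14. Gzma stood alone on chromosome 13 (113093824 to 113100981). The 6 clustered members were therefore neighbours, while the seventh was on another chromosome. The windows below show what the upstream sequence of Gzmc to Gzmg shares and where it differs, with Gzmb for contrast. Each is 96 bases on the minus strand of GRCm38.p6, from the RefSeq promoter table (250 bases before to 50 after a gene's start). Capitals mark the octamer at the cyclic AMP response element (CRE) position, TGACGTCA or the letters in its place, and in Gzmb the AP-1 motif TGANTCA.
Gzmc, chr14:56234665-56234760: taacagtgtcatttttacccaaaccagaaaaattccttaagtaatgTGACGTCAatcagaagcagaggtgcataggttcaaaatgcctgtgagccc
Gzmd, chr14:56132605-56132700: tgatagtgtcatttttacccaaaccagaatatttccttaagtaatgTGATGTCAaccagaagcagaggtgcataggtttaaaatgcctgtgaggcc
Gzme, chr14:56120638-56120733: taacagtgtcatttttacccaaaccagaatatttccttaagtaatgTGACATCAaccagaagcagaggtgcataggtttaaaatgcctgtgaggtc
Gzmf, chr14:56211440-56211535: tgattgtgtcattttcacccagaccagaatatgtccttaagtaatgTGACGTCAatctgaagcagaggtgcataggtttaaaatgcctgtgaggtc
Gzmg, chr14:56159607-56159702: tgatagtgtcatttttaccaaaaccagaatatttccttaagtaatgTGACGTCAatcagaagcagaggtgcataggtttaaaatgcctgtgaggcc
Gzmb, chr14:56262335-56262430: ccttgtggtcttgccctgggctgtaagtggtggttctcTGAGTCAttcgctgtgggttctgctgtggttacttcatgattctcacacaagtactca

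The 5 windows of Gzmc to Gzmg were 87.5% (Gzmc and Gzmf) to 96.9% (Gzmd and Gzmg) identical in pairs. The octamer TGACGTCA was intact in Gzmc, Gzmf and Gzmg, while Gzmd carried C4T and Gzme G5A, counted from 1 at its 5′ end. Searched on both strands of the full promoter windows, TGACGTCA was in these 3 of the 7 members and in 1.79% of 32851 promoters, and TGANTCA in Gzmb alone among the members and in 7.81% of promoters. The letters TGTGGT, the core bound by RUNX factors, were in 7 of 7 members and in 16.8% of promoters. Gzmd and Gzme, whose octamers had the 1-base differences, had 386 and 1055 UMIs in Gli1+ fibroblasts at 7 dpi, and Gzmc, Gzmf and Gzmg, with the intact letters, had 393, 5 and 7 UMIs. For Gzmc the table's start lay inside the annotated gene span.

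The members can be told apart at the 3′ end that this assay reads. Of 411 windows of 90 bases over the last 500 bases of each transcript, 98.3% were unique among the granzymes for Gzmd and for Gzme, which shared 7 windows with each other, and 100% for the other members. Over whole transcripts Gzmd and Gzme were 94.8% identical, Gzmc was 72.7% to 74.3% identical to Gzmd to Gzmg, and Gzma was 55.3% to 61.2% identical to the other members. How reads shared by Gzmd and Gzme were counted is not given in the sources used here.

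At 7 dpi fibroblasts of both sorts contained transcripts of Gzme, Gzmc and Gzmd, which were absent or at 1 UMI in uninjured fibroblasts. Gzma was at 0 in the 7 dpi fibroblasts, and its UMIs in uninjured Gli1+ tendon lay in few leukocytes (below). Summed over Gzmc to Gzmg the level in Gli1+ fibroblasts was 0 CPM uninjured (0 UMIs, exact upper limit 0.229), 33.2 CPM at 7 dpi (31.7 to 34.8) and 15.5 CPM at 21 dpi (14.5 to 16.5). In Gli1- fibroblasts it was 0.0298 CPM (1 UMI), 43.8 CPM (42.4 to 45.2) and 28.8 CPM (27.4 to 30.2). Thus both injured time points lay above the uninjured one in both sorts, and 7 dpi lay above 21 dpi.

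Gzme was the member with most UMIs at 7 dpi. Its level was 0, 19.0 CPM (17.9 to 20.2) and 5.56 CPM (4.96 to 6.20) in Gli1+ fibroblasts of uninjured tendon, 7 dpi and 21 dpi. The corresponding Gli1- levels were 0, 25.1 CPM (24.1 to 26.2) and 7.49 CPM (6.81 to 8.22). The order from the highest was therefore Gli1- 7 dpi, Gli1+ 7 dpi, Gli1- 21 dpi, Gli1+ 21 dpi and the uninjured libraries, and the intervals of the 4 injured libraries did not overlap. Against the limit set by 3 UMIs, Gzme at 7 dpi was at least 102-fold higher than in uninjured Gli1+ fibroblasts and at least 281-fold higher in Gli1-.

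Gzmd, the closest relative of Gzme, was at 0, 6.95 CPM (6.28 to 7.68) and 0.714 CPM (0.513 to 0.969) in Gli1+ fibroblasts. In Gli1- fibroblasts Gzmd was at 0, 7.30 CPM (6.73 to 7.90) and 2.06 CPM (1.71 to 2.46). Its 7 dpi levels in the 2 sorts had overlapping intervals, and those at 21 dpi did not. The 7 dpi level was at least 37.3-fold (Gli1+) and at least 81.5-fold (Gli1-) above uninjured.

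Gzmc, a chymotrypsin-like granzyme, had its higher level at 21 dpi by total UMIs. Its level was 0, 7.08 CPM (6.40 to 7.81) and 9.20 CPM (8.43 to 10.02) in Gli1+ fibroblasts, and 0.0298 (1 UMI), 11.1 CPM (10.4 to 11.9) and 19.2 CPM (18.1 to 20.4) in Gli1- fibroblasts. By total UMIs Gzmc was thus higher at 21 dpi than at 7 dpi within each sort, an order that was not detectable with cells thinned to equal depth (below), and higher in Gli1- than in Gli1+ fibroblasts at each injured time point.

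Gzmb was lower than these 3 in 7 dpi fibroblasts. It was at 0.0621 (1 UMI), 1.26 CPM (0.983 to 1.59) and 0.784 CPM (0.572 to 1.05) in Gli1+ fibroblasts. In Gli1- fibroblasts it was at 0, 2.81 CPM (2.47 to 3.19) and 3.67 CPM (3.20 to 4.19). The intervals of the 2 Gli1+ injured libraries overlapped, and those of the 2 Gli1- injured libraries met without overlapping at the digits given.

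Gzmf and Gzmg were near the limit of detection. Gzmf had 5 UMIs and Gzmg 7 UMIs in Gli1+ fibroblasts at 7 dpi, and 16 and 5 UMIs in Gli1- fibroblasts. At 21 dpi Gzmf had 1 UMI in each sort and Gzmg none. Gzma had 1 UMI in uninjured Gli1+ fibroblasts and 0 in the other 5 fibroblast groups. Among the granzymes outside the members, Gzmm, whose product favours cleavage after methionine and leucine, was highest in uninjured Gli1+ fibroblasts (6.58 CPM, against 0.756 and 1.12 CPM at 7 and 21 dpi). Gzmn, in the same chromosome 14 stretch, had 18 and 33 UMIs at 7 dpi (Gli1+ and Gli1-) and at most 1 in the other 4 libraries. Gzmk had 1, 13 and 2 UMIs in Gli1+ fibroblasts (uninjured, 7 and 21 dpi) and 13, 24 and 4 in Gli1-. In lymphocytes of the Gli1+ uninjured library it had 299 UMIs (10.6 CPM).

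**Figure D1:**
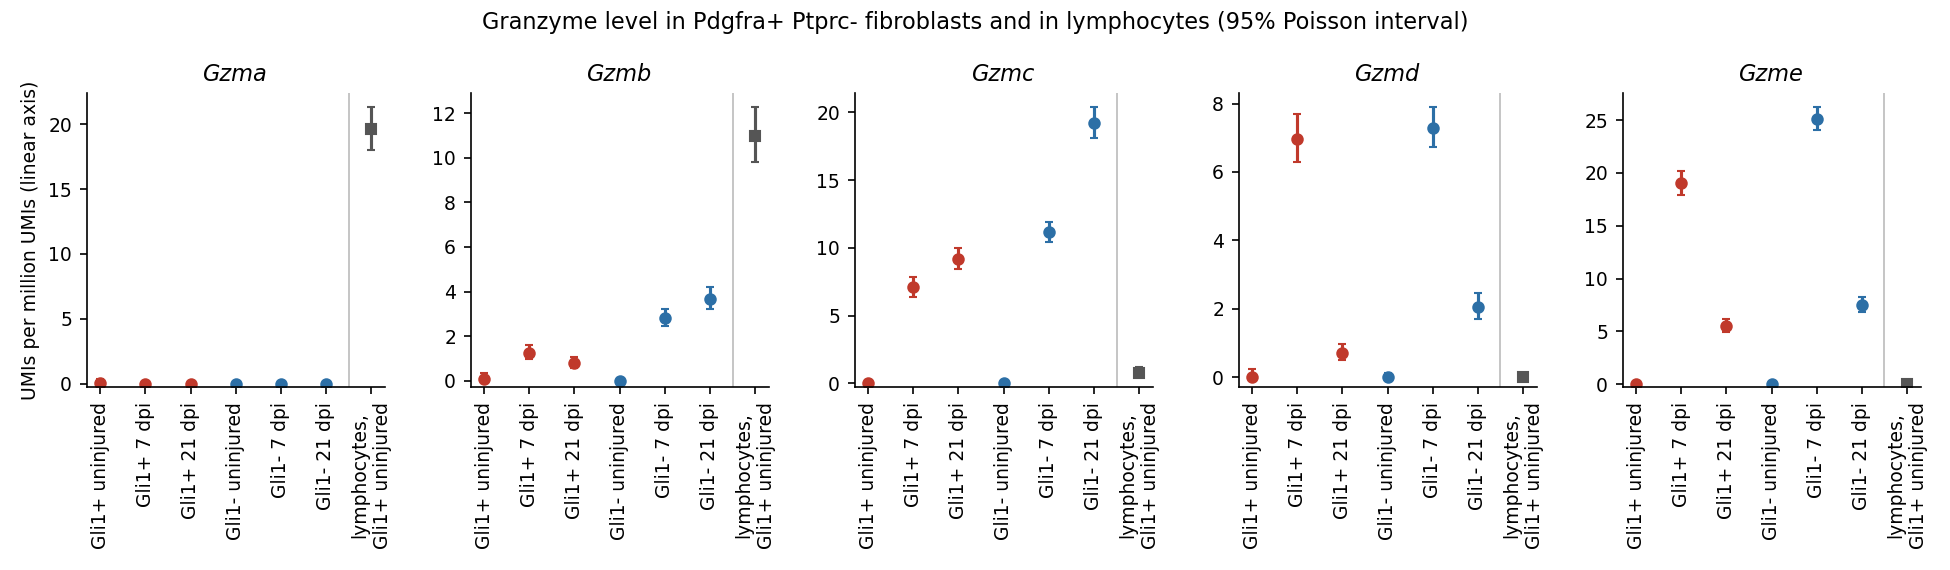
Level of Gzma, Gzmb, Gzmc, Gzmd and Gzme in fibroblasts, in CPM on linear axes, 1 panel per gene. Red points are Gli1+ and blue points Gli1- fibroblasts of uninjured tendon, 7 dpi and 21 dpi, the grey square is the lymphocytes of the Gli1+ uninjured library, and bars are 95% Poisson intervals. Gzme and Gzmd are highest at 7 dpi. Gzmc is drawn highest at 21 dpi by total UMIs but not detectably so with cells thinned to equal depth. Gzma is high in the lymphocytes, where few cells carry it, and at 1 UMI or 0 in the fibroblast groups.

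Because the levels chose the members, the counts of members that moved by at least 2-fold (with at least 20 UMIs over both groups) are given with no reading beyond the values. From uninjured to 7 dpi 4 of 7 members (Gzmb, Gzmc, Gzmd and Gzme) were higher in each sort, where 14.9% of 17716 genes were higher in Gli1+ and 15.2% of 18227 in Gli1- fibroblasts. The log2 ratio was 4.34 (1.82 to 9.67) for Gzmb in Gli1+ and 8.54 (6.06 to 13.85) for Gzmc in Gli1-, both resting on 1 UMI in the uninjured library. Gzmb in Gli1- was at least 31.4-fold and Gzmc in Gli1+ at least 38.0-fold higher. The sum of Gzmc to Gzmg was at least 178-fold higher at 7 dpi and at least 83.1-fold higher at 21 dpi than in uninjured Gli1+ fibroblasts, where 8.97% of 17199 genes were higher at 21 dpi. In Gli1- fibroblasts its log2 ratios to uninjured were 10.52 (8.04 to 15.82) and 9.91 (7.43 to 15.22).

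Between 7 and 21 dpi the members parted. Gzmd was lower at 21 dpi with a log2 ratio of -3.28 (-3.78 to -2.82) in Gli1+ and -1.82 (-2.12 to -1.54) in Gli1- fibroblasts, and Gzme with -1.77 (-1.96 to -1.59) and -1.75 (-1.90 to -1.60). Without the 10 cells with most UMIs of each library these became -5.02 for Gzmd and -3.08 for Gzme in Gli1+ and -2.35 and -2.005 in Gli1-, and with at least 2 Pdgfra UMIs per fibroblast -2.45 and -1.24, and -1.42 and -1.34. These 2 of 7 members passed 2-fold lower, beside 12.5% of 18152 genes (Gli1+) and 8.01% of 18514 genes (Gli1-), and 0 of 7 passed 2-fold higher, beside 5.16% and 6.39%. Gzmc was higher at 21 dpi, with 0.38 (0.19 to 0.57) and 0.79 (0.66 to 0.91). These Gzmc differences were at 0.14 (-0.40 to 0.69) and -0.05 (-0.42 to 0.31) when every cell was thinned to 2000 UMIs, so that the direction was not detectable at equal depth per cell. Gzmb had -0.69 (-1.26 to -0.12) in Gli1+ and 0.38 (0.11 to 0.65) in Gli1-, the latter becoming -0.09 on 22 and 28 UMIs after thinning. The sum of Gzmc to Gzmg was lower at 21 dpi by a log2 ratio of -1.10 (-1.22 to -0.99) in Gli1+ and -0.61 (-0.69 to -0.52) in Gli1-. With other filters, gates, scaling or depth per cell it ran from -1.66 to -0.54 and from -1.30 to -0.22. Fibroblasts with Y-linked but no Xist UMIs had 33.9 CPM (Gli1+) and 46.8 CPM (Gli1-) of the sum at 7 dpi, and those with Xist but no Y-linked UMIs 15.99 and 29.5 CPM at 21 dpi, so that time and sex cannot be told apart in this comparison.

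The make-up of the Gzmc to Gzmg UMIs changed accordingly. Gzme made up 57.2% of them at 7 dpi (54.9 to 59.4) and 35.9% at 21 dpi (32.7 to 39.1) in Gli1+ fibroblasts, and 57.3% (55.7 to 58.9) and 26.0% (23.9 to 28.2) in Gli1-. Gzmc went from 21.3% (19.4 to 23.2) to 59.4% (56.1 to 62.6) in Gli1+ and from 25.4% (24.0 to 26.9) to 66.8% (64.5 to 69.0) in Gli1-. Gzmd made up 20.9% and then 4.61% in Gli1+, and 16.7% and then 7.16% in Gli1-. Both sorts were thus mostly Gzme at 7 dpi and mostly Gzmc at 21 dpi. The intervals count UMIs, and many UMIs came from the same few cells (below), so they are narrower than intervals over cells would be.

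**Figure D2:**
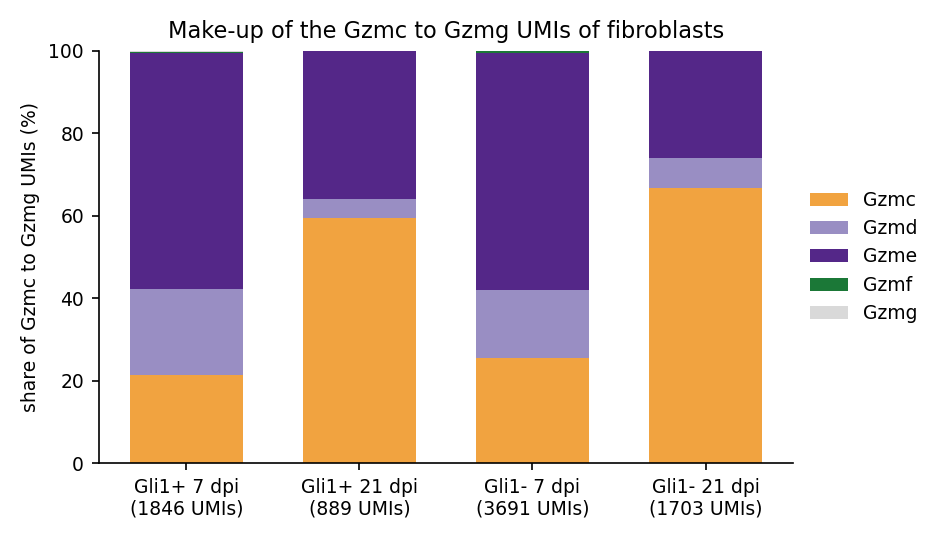
Share (%) of the summed Gzmc to Gzmg UMIs that each gene contributed in fibroblasts of the 4 injured libraries, drawn as stacked bars. Gzme fills 57.2% and 57.3% of the bars at 7 dpi, and Gzmc 59.4% and 66.8% at 21 dpi.

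Gzmb, Gzmc and Gzme were lower in Gli1+ than in Gli1- fibroblasts at both injured time points. At 7 dpi the log2 ratio of Gli1+ to Gli1- was -1.16 (-1.56 to -0.77) for Gzmb, -0.65 (-0.83 to -0.48) for Gzmc, -0.40 (-0.51 to -0.29) for Gzme and -0.07 (-0.26 to 0.12) for Gzmd, whose interval included 0. Gzmg had 7 and 5 UMIs and a ratio of 1.09 (-0.78 to 3.09), and Gzma was at 0 in both. Gzmb and Gzmf passed 2-fold, Gzmf with -1.08 on 5 and 16 UMIs and an interval that included 0 (-2.88 to 0.44), beside 2.71% of 18762 genes lower and 5.47% higher in Gli1+. At 21 dpi the ratios were -2.23 (-2.72 to -1.76) for Gzmb, -1.06 (-1.21 to -0.91) for Gzmc, -1.53 (-2.08 to -1.01) for Gzmd and -0.43 (-0.64 to -0.22) for Gzme, so that 3 of 7 members passed 2-fold, beside 3.07% of 17786 genes lower and 2.28% higher. Which members passed depended on few cells and on depth. Without the 10 cells with most UMIs of each library the 21 dpi ratios were -3.23 for Gzmb, -0.96 for Gzmc, -3.12 for Gzmd and -1.53 for Gzme, and after thinning that of Gzmc was -0.77. For the sum of Gzmc to Gzmg the 7 dpi ratio was -0.40 (-0.48 to -0.32) and the 21 dpi ratio -0.89 (-1.01 to -0.78). The median over all genes tested was 0.03 and -0.01.

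The contrast with lymphocytes chose the members, and its values follow as a description. Lymphocytes of uninjured tendon had Gzma at 19.6 CPM (18.0 to 21.3) and Gzmb at 11.0 CPM (9.79 to 12.3), with Prf1 at 16.1 CPM. In the same cells Gzmc was at 0.776 CPM (22 UMIs), Gzmf at 1 UMI, and Gzmd, Gzme and Gzmg at 0. The Gzma level rested on few cells. Of the Ptprc-positive, Pdgfra-negative cells of the Gli1+ uninjured library 31 had a Gzma UMI and 110 a Gzmb UMI. Relative to these lymphocytes, Gli1+ fibroblasts at 7 dpi had Gzme at least 179-fold higher, Gzmd at least 65.7-fold higher and Gzmc higher by a log2 ratio of 3.19 (2.57 to 3.88). Gzma was at least 363-fold lower and Gzmb differed by -3.12 (-3.52 to -2.74). Thus 3 of 7 members were higher and 2 lower, beside 33.9% and 25.2% of 18592 genes.

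Gli1- fibroblasts at 7 dpi had Gzme at least 237-fold and Gzmd at least 68.9-fold above the same lymphocytes, and Gzmb at -1.96 (-2.21 to -1.72). Summed over Gzmc to Gzmg, the log2 ratio of fibroblasts to lymphocytes was 5.36 (4.77 to 6.02) for Gli1+ and 5.75 (5.17 to 6.41) for Gli1-. Summed over Gzma and Gzmb it was -4.60 (-4.97 to -4.25) for Gli1+. Over the processing alternatives the Gli1+ values ran from 4.02 to 6.57 for Gzmc to Gzmg and from -7.40 to -4.10 for Gzma and Gzmb. The lymphocytes came from another time point than the fibroblasts, as the Gli1+ injured libraries held 0 cells that met the lymphocyte definition.

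Cytotoxic lymphocyte genes were near 0 in injured fibroblasts, with exceptions. The summed level of the list of 16 such genes was 11.7 and 19.3 CPM in Gli1+ fibroblasts (7 and 21 dpi) and 6.60 and 18.4 CPM in Gli1- fibroblasts, against 22.9 and 4.15 CPM in uninjured fibroblasts (Gli1+ and Gli1-) and 1800 CPM in lymphocytes. In Gli1+ fibroblasts Prf1 had 4, 1 and 1 UMIs over the 3 time points, and in Gli1- fibroblasts 0, 2 and 2. The T cell and natural killer cell genes Cd3e, Cd8a, Klrk1 and Ncr1 were at 0 in fibroblasts of all 4 injured libraries, where lymphocytes had Cd3e at 242 CPM and Cd8a at 27.5 CPM. Between 4 and 7 of the 16 genes were at 0 in each injured fibroblast group. The chemokine gene Ccl5 (4.33 to 10.4 CPM) and the transcription factor gene Runx3 (1.06 to 7.35 CPM) were the ones above 2 CPM in an injured fibroblast group. In cells with a Gzmc to Gzmg UMI 1 gene of the list was higher and 1 lower than in other fibroblasts in each of the 4 injured libraries, of 3 or 4 with enough UMIs. Over all genes 1.74% and 1.73% were higher and 4.35% and 4.96% lower at 7 dpi (Gli1+ and Gli1-), and 3.64% and 3.3% higher and 9.85% and 12% lower at 21 dpi. At 7 dpi over uninjured 0 of 6 tested genes of the list were higher and 3 lower in Gli1+, where 14.9% of all genes were higher and 20.4% lower. In Gli1- 1 of 4 was higher and 1 lower, where 15.2% were higher and 16.7% lower. At 21 dpi over uninjured 1 of 5 tested genes of the list was higher and 3 lower in Gli1+, where 8.97% of all genes were higher and 21.1% lower. In Gli1- 3 of 4 were higher and 0 lower, where 13.6% were higher and 17.5% lower. The part of lymphocyte RNA in the members' levels was not tested. Over whole libraries Ptprc was at 0.0989 and 0.167 CPM at 7 dpi (Gli1+ and Gli1-), against 732 CPM in the Gli1+ uninjured library.

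Within the Gli1+ uninjured library the members lay in leukocytes. Of 624 Gzma UMIs 558 were in 31 Ptprc-positive, Pdgfra-negative cells and 1 in a fibroblast, and the most in 1 cell of the library was 120. Of 322 Gzmb UMIs 313 were in 110 Ptprc-positive, Pdgfra-negative cells. All 24 UMIs of Gzmc to Gzmg there were in 18 such cells. The Gli1- uninjured library had 20 UMIs of Gzmc to Gzmg, of which 16 were in 2 of its 20 Ptprc-positive, Pdgfra-negative cells, 15 of them in 1 cell, and 1 was in a fibroblast. A cluster of 450 lymphoid cells led by Ccl5, Xcl1, Ifng and Nkg7, genes of natural killer and effector T cells, had Gzma at 167 CPM, Gzmb at 44.4 CPM and Gzmc to Gzmg at 0.816 CPM.

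The share of Gzmc to Gzmg UMIs in Pdgfra-positive cells is given beside the share of all UMIs in those cells. At 7 dpi they held 1846 of 2489 Gzmc to Gzmg UMIs in the Gli1+ library (74.2%, 72.4 to 75.9), with 51.7% of cells and 61.0% of all UMIs. In the Gli1- library they held 3691 of 4670 (79.0%, 77.8 to 80.2), with 66.2% of cells and 78.2% of all UMIs, so that the level in the gate (43.8 CPM) was close to that of the whole library (43.3 CPM). At 21 dpi they held 889 of 1042 (85.3%, beside 58.4% of all UMIs) and 1703 of 1858 (91.7%, beside 60.4%). Ptprc-positive, Pdgfra-negative cells of the Gli1+ libraries numbered 0 and 1 at 7 and 21 dpi, those of the Gli1- libraries 6 and 21, and they held 0 of these UMIs, which at so few cells limits little. The UMIs outside the Pdgfra gate were mostly in cells without a Pdgfra or Ptprc UMI that clustered with mesenchymal cells. Mesenchymal-like clusters together held 96.8% and 98.7% of the UMIs at 7 dpi and 97.8% and 98.3% at 21 dpi (Gli1+ and Gli1- in each case). The same clusters held 75.7% and 80.7% of kept cells at 7 dpi and 82.4% and 70.0% at 21 dpi.

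Cells with neither marker carried these transcripts at 7 dpi as well. In mesenchymal-like clusters they had 29.7 CPM (27.3 to 32.2) over 2491 Gli1+ cells, against 33.2 CPM in Gli1+ fibroblasts, and 56.4 CPM (52.8 to 60.2) over 1659 Gli1- cells, against 43.8 CPM. At 21 dpi the same kind of cell had 5.55 and 6.18 CPM, below the Pdgfra-positive fibroblasts given above.

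Clusters of other cell types held a few of these UMIs too, which gives the background to read the fibroblast shares against. At 7 dpi Gzmc to Gzmg were at 3.75 CPM (2.90 to 4.78) in 1817 epidermal-like cells of the Gli1+ library and at 7.02 CPM (4.74 to 10.02) in endothelial-like and 5.60 CPM in mural-like cells of the Gli1- library. Other non-mesenchymal classes with 1 to 7 UMIs lay between 4.34 and 22.9 CPM, among them Gli1+ endothelial-like cells at 9.73 CPM and Gli1- Schwann-like cells at 9.15 CPM (7 UMIs each). With each cell thinned to 2000 UMIs, 3.21% of Gli1+ fibroblasts (152 of 4728, 2.73 to 3.76) and 3.99% of Gli1- fibroblasts (259 of 6484, 3.53 to 4.50) had a Gzmc to Gzmg UMI. In cells outside the mesenchymal-like clusters the thinned shares were 1.11% (23 of 2076) and 1.01% (13 of 1284), so that the fibroblast share lay above that of the other cells. Cells of those clusters with a Pdgfra and no Ptprc UMI counted in both groups. Median depths before thinning were 10611.5 and 11929 UMIs in fibroblasts and 8184 and 2749 in the other cells, and unthinned shares were 10.3% and 13.2% against 3.38% and 2.76%.

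At 21 dpi the thinned shares were 1.14% and 1.92% in fibroblasts against 0 of 1629 and 0.274% (7 of 2558) in other cells. In uninjured tendon 0 of 1592 thinned Gli1+ fibroblasts had such a UMI, which allows a share of cells with a UMI at this depth of up to 0.231% (exact upper limit), and 1 of 4972 Gli1- fibroblasts (0.0201%).

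**Figure D3:**
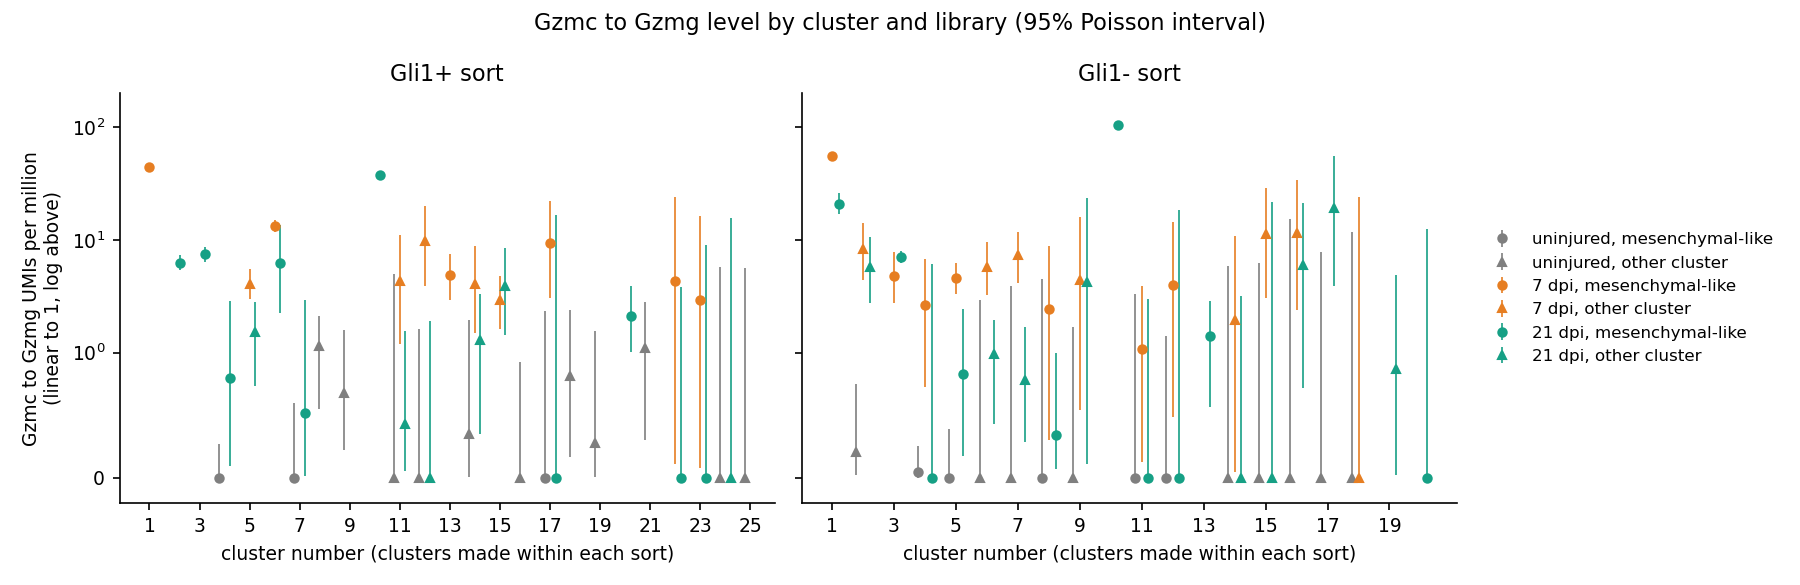
Summed Gzmc to Gzmg level (CPM, axis linear to 1 and logarithmic above) in each cluster, by library, for the Gli1+ sort (left) and the Gli1- sort (right). Circles are mesenchymal-like and triangles other clusters, in grey for uninjured, orange for 7 dpi and green for 21 dpi. At 7 dpi cluster 1 holds most UMIs in both sorts (44.5 and 55.8 CPM), and at 21 dpi cluster 10 is highest (38.0 and 105 CPM).

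Within the mesenchymal-like clusters, which were computed per sort without the members, the level was uneven and the cluster with most UMIs differed between time points. At 7 dpi cluster 1 of the Gli1+ sort (4555 cells, 49.2% of the library) was led by the imprinted RNA H19 and the chemokines Ccl2 and Ccl7. It had 44.5 CPM (42.6 to 46.4) and 85.8% of the library's Gzmc to Gzmg UMIs. Cluster 1 of the Gli1- sort (5356 cells, 53.9% of the library), led by H19, Ptn and Crabp1, had 55.8 CPM (54.2 to 57.4) and 96.4%. These were the main 7 dpi fibroblast clusters. A Gli1+ cluster led by Crabp1, Acta2 and the mitotic gene Birc5 (1340 cells) had 13.3 CPM. The other mesenchymal-like clusters of at least 50 cells lay between 2.94 and 9.49 CPM in Gli1+ and between 1.07 and 4.84 CPM in Gli1-. Among the latter was a cluster of 1546 cells at 4.64 CPM. These levels were in or below the range given above for other cell types.

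At 21 dpi most UMIs were in a smaller cluster that each sort had, led by the acute-phase gene Saa3 and the matrix metalloproteinases Mmp13 and Mmp3. In Gli1+ it held 912 cells, 38.0 CPM (35.1 to 41.2) and 57.7% of the UMIs, with Gzmc at 24.5, Gzme at 11.1, Gzmb at 2.41 and Gzmd at 2.34 CPM. In Gli1- it held 712 cells, 105 CPM (99.7 to 111) and 77.8% of the UMIs, with Gzmc at 70.1, Gzme at 27.3, Gzmb at 14.2 and Gzmd at 7.63 CPM. Gzmc was thus the leading member in this cluster in both sorts. Gzmb was at 11.0 CPM over all lymphocytes and at 44.4 CPM in the lymphoid cluster led by Ccl5 and Xcl1. In Gli1- fibroblasts at 21 dpi 9 cells held 50% of the Gzmb UMIs. In a Gli1+ cluster led by the complement gene C4b and by Pi16 (2956 cells, 6.29 CPM) Gzme was at 4.004 and Gzmc at 2.25 CPM. The tendon-like cluster led by Matn4, Cilp2 and Tnmd in Gli1+ had 7.45 CPM over 2470 cells, and that led by Cilp2, Sfrp4 and Tnmd in Gli1- 7.13 CPM over 3916 cells. The large uninjured clusters (1381 Gli1+ and 3586 Gli1- cells) held 0 and 1 UMIs.

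Few cells carried most of the transcripts. Of 4786 Gli1+ fibroblasts at 7 dpi, 491 had a Gzmc to Gzmg UMI, 314 of them exactly 1, and 41 had 10 or more, and 28 cells held 50% of these UMIs. Of 6571 Gli1- fibroblasts at 7 dpi 870 had one, 530 of them exactly 1, 80 had 10 or more, and 48 cells held 50%. At 21 dpi 253 of 5254 and 321 of 5521 fibroblasts were positive, and 19 and 24 cells held 50%. The most UMIs in 1 cell were 89 and 154 at 7 dpi and 87 and 81 at 21 dpi (Gli1+ and Gli1-). The top 10 cells held 29.4% and 23.8% at 7 dpi and 39.1% and 28.8% at 21 dpi. For Gzme in Gli1+ fibroblasts at 21 dpi 3 cells held 50%, so its level there rested on very few cells.

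Positive cells were deeper than the rest. Their median UMI count at 7 dpi was 13483 against 10209 (Gli1+) and 16094 against 11128 (Gli1-), and at 21 dpi 16131 against 9419 and 18193 against 9125. Median doublet scores were 0.0444 against 0.0388 and 0.0412 against 0.0402 at 7 dpi, and the part of depth or doublets in the level was not tested.

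**Figure D4:**
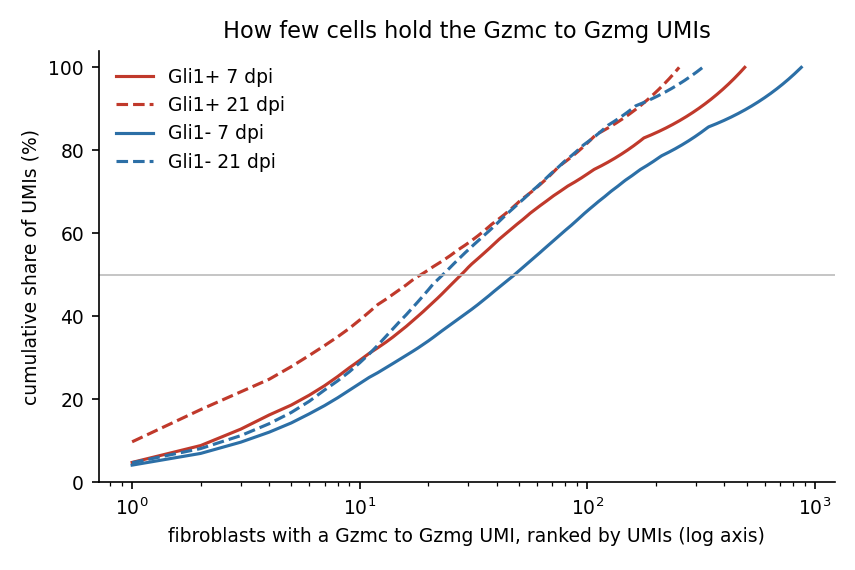
Cumulative share (%) of Gzmc to Gzmg UMIs against the number of fibroblasts with such a UMI, ranked from the most UMIs to the fewest on a logarithmic axis, with 1 line per injured library and a horizontal line at 50%. The lines cross 50% at 28 (Gli1+ 7 dpi), 19 (Gli1+ 21 dpi), 48 (Gli1- 7 dpi) and 24 (Gli1- 21 dpi) cells.

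The members occurred together in cells. Of Gli1+ fibroblasts with Gzmd at 7 dpi 53 of 107 also had Gzme (49.5%, 39.7 to 59.4), against 4.81% of those without Gzmd. In Gli1- fibroblasts it was 113 of 212 (53.3%, 46.3 to 60.2) against 6.62%. After thinning to 2000 UMIs the shares were 15 of 33 (45.5%) against 1.85%, and 27 of 61 (44.3%) against 1.91%, so the pairing was also there at equal depth per cell.

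Gzmb and Gzmc were also found together before thinning. At 7 dpi 22 of 36 Gli1+ fibroblasts with Gzmb had Gzmc (61.1% against 4.55%), and 56 of 91 Gli1- fibroblasts (61.5% against 5.48%). At 21 dpi it was 14 of 20 against 3.69% and 49 of 72 (68.1%) against 3.67%. After thinning, 10 of 26 Gli1- cells with Gzmb had Gzmc at 7 dpi (38.5% against 1.56%). Seen from Gzmc, the thinned counts of cells with Gzmb were 3 of 47 (Gli1+) and 10 of 111 (Gli1-) at 7 dpi and 0 of 48 and 8 of 77 at 21 dpi, so that the pairing was not detectable at equal depth in Gli1+ at 21 dpi. Of fibroblasts with Gzmc at 7 dpi 69 of 238 (29.0% against 4.60%) and 173 of 411 (42.1% against 5.86%) had Gzme. In Gli1+ fibroblasts at 21 dpi 0 of 20 cells with Gzmb had Gzmd, against 0.306% of those without, so that few cells limit this count. It was 8 of 72 (11.1% against 0.661%) in Gli1- at 21 dpi. At 7 dpi it was 10 of 36 (27.8% against 2.04%) in Gli1+ and 22 of 91 (24.2% against 2.93%) in Gli1-.

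Of the 10 neighbours of the run on chromosome 14 (5 on either side) 6 were in the matrices. Mcpt9, a mast cell protease gene, was at 0 in fibroblasts of all 6 libraries. Ctsg, encoding the neutrophil protease cathepsin G, had at most 11 UMIs in a library and 0 in both 7 dpi libraries. Mcpt8, a basophil protease gene, had 0 and 18 UMIs in uninjured fibroblasts (Gli1+ and Gli1-), 14 and 15 at 7 dpi and 84 and 115 at 21 dpi. In CPM this was 0 and 0.537, then 0.252 and 0.178, then 1.46 and 1.94. Atp12a, a proton pump gene, had 0 UMIs in uninjured fibroblasts, 50 and 106 at 7 dpi (0.901 and 1.26 CPM) and 75 and 82 at 21 dpi (1.31 and 1.39 CPM). Rnf17, known from germ cells, went from 6 to 68 UMIs (0.373 to 1.22 CPM) in Gli1+ and from 27 to 136 UMIs (0.806 to 1.61 CPM) in Gli1- fibroblasts at 7 dpi. Mcpt4, a mast cell protease gene, had 32 UMIs (1.99 CPM) in uninjured Gli1+ fibroblasts and at most 4 UMIs (at most 0.0507 CPM) in the other libraries.

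Likeness to the Gzmc to Gzmg sum was measured as the Pearson correlation of log2(CPM + 1) over clusters by library with at least 50 cells (41 points in Gli1+, 48 in Gli1-), and 14565 genes were ranked by the lower of the 2 sorts. The 10 most alike genes (Gli1+ and Gli1- values) were the tenascin genes Tnn (0.77 and 0.73) and Tnc (0.64 and 0.62), the epidermal growth factor receptor ligand Ereg (0.76 and 0.73), the chemokine Cxcl5 (0.72 and 0.70), the fibroblast gene Lrrc15 (0.69 and 0.63), Plekhg4 (0.82 and 0.66), Nt5dc2 (0.67 and 0.63), Brinp3 (0.65 and 0.62) and the RNA genes Far2os1 (0.86 and 0.63) and Far2os2 (0.77 and 0.71). Points share libraries, depth and time, so these values describe likeness only. Of the members Gzmb correlated with that sum at 0.07 in Gli1+ and 0.58 in Gli1-, and Gzma at -0.12 and -0.10. The points were clusters of all cell types and not of fibroblasts alone. Gli1+ had 5 lymphoid-like clusters, 1 of them with Gzmb at 44.4 CPM beside Gzmc to Gzmg at 0.816 CPM, and Gli1- had none. These values therefore do not compare the fibroblasts of the sorts, and the part of lymphoid cells in them was not tested.

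In uninjured, 7 dpi and 21 dpi Gli1+ fibroblasts Tnn had 4.85, 380 and 182 CPM, and in Gli1- 3.16, 342 and 175 CPM. Tnc was at 79.1, 1972 and 872 CPM in Gli1+ fibroblasts and 21.7, 1688 and 925 CPM in Gli1-. Both tenascins were highest at 7 dpi within each sort, like Gzme, but at 7 dpi they were higher in Gli1+ than in Gli1-, unlike Gzme. Cxcl5 instead was higher at 21 than at 7 dpi, with Gli1+ levels of 0.745, 440 and 531 CPM and Gli1- levels of 3.28, 419 and 687 CPM, and Ereg likewise, with 2.30, 109 and 159 CPM (Gli1+) and 1.67, 94.2 and 177 CPM (Gli1-).

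Within 7 dpi fibroblasts, cells with a Gzmc to Gzmg UMI (491 Gli1+ and 870 Gli1-) were compared with those without (4295 and 5701). Of these positive cells 314 and 530 held exactly 1 such UMI, and cells of other types carried such UMIs too (above). How many positive cells were background was not tested. At 2-fold 1.74% of 16644 genes were higher and 4.35% lower in the Gli1+ positive cells, and 1.73% and 4.96% of 17197 in the Gli1- positive cells. The 10 genes with the highest and the 10 with the lowest ratios in both sorts were named by rule among 9628 genes. With positive cells called from 3 UMIs (106 Gli1+ and 211 Gli1-), the ratio of each named gene lay further from 0 in both sorts. Chrdl2 then had 3.66 and 4.02, and Pi16 had -1.84 and -2.51. The ratios that follow use 1 UMI. The higher ones included Pdzrn4, a ubiquitin ligase family gene, at 107 against 28.5 CPM in Gli1+ and 171 against 25.1 CPM in Gli1- (log2 ratios 1.91 and 2.77), and Chrdl2, encoding a bone morphogenetic protein antagonist of the chordin family, at 11.8 against 2.39 and 15.5 against 2.57 CPM (2.30 and 2.60). Brinp1 followed with 127 against 40.0 and 141 against 47.7 CPM, and Camk4, a calcium-dependent kinase gene, with 97.7 against 37.8 and 105 against 31.2 CPM. The neural receptor genes Chrna7 (1.32 and 1.79) and Grm7 (2.06 and 1.28) and the adhesion gene Ncam2 (1.51 and 1.18) were also among them. At 21 dpi the ratio of Pdzrn4 was 3.38 and 3.26, while that of Grm7 was 0.03 and 0.18 and that of Chrna7 0.46 and -0.06. Within the 21 dpi cluster led by Saa3 the ratios were 0.33 and 2.68 for Grm7 and 0.01 and 1.51 for Chrna7. Over all 21 dpi fibroblasts the positive cells held only 12 to 21 UMIs of Grm7 or Chrna7.

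Among the 10 lower genes was Myoc, a leading gene of an uninjured fibroblast cluster that encodes the secreted protein myocilin. It was at 14.2 against 54.2 CPM in Gli1+ and 16.8 against 86.8 CPM in Gli1- (-1.93 and -2.37). Gsn, encoding the actin-severing protein gelsolin, was at 550 against 1173 and 887 against 3152 CPM. Tnxb (-1.41 and -1.73), Ccl11 (-1.36 and -1.69), Clec3b (-1.31 and -1.60) and the adventitial marker Pi16 (-1.03 and -1.51) were lower too. At 21 dpi these 6 genes were again lower over all fibroblasts, but within the Saa3 cluster the ratio of Myoc was 0.09 in Gli1+ and 1.13 in Gli1-, that of Clec3b -1.17 and -0.22 and that of Tnxb -1.11 and -0.40.

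**Figure D5:**
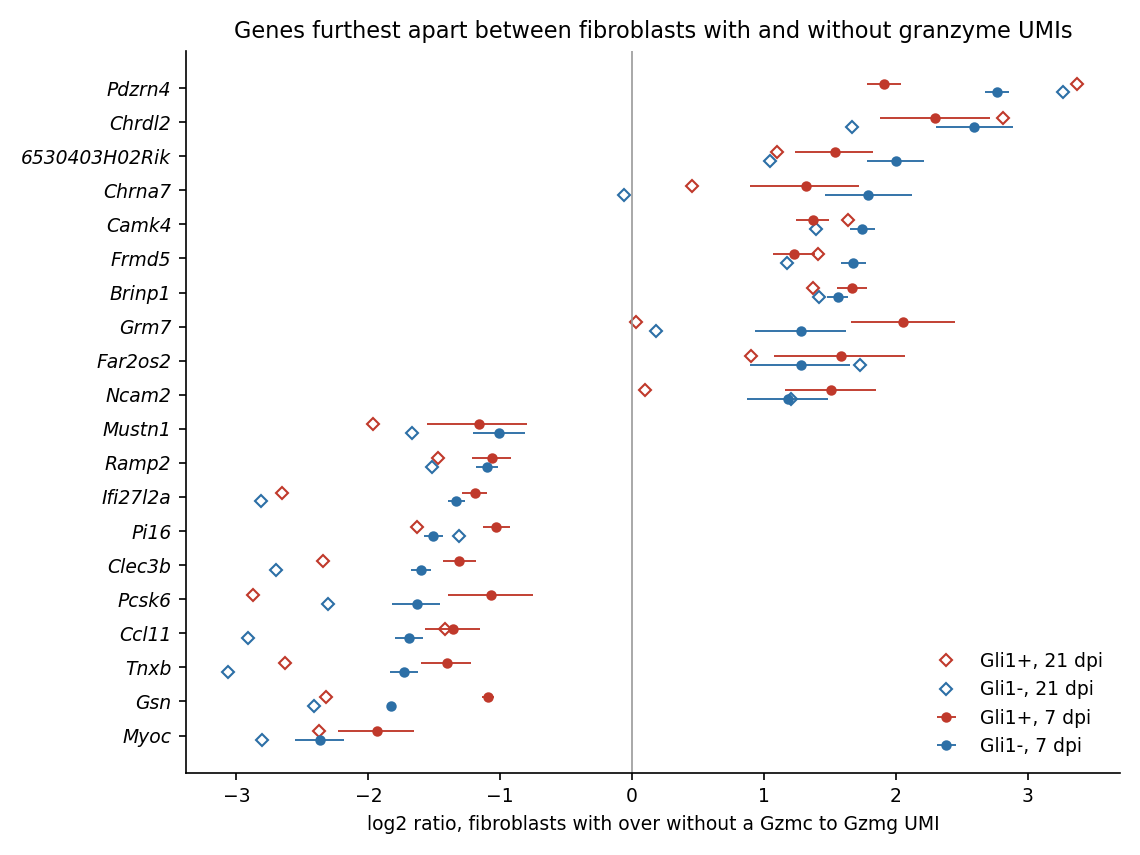
Log2 ratio of the level in fibroblasts with a Gzmc to Gzmg UMI to that in fibroblasts without one, for the 20 genes named by rule, in Gli1+ (red) and Gli1- (blue). Filled points are 7 dpi with 95% counting intervals and open diamonds 21 dpi. Pdzrn4 and Chrdl2 lie to the right and Myoc to the left in all 4 libraries.

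The gene lists were compared between positive and other cells next. Positive cells were again called from 1 UMI, so counts of 0 past 2-fold here and below carry the limit given above. At 7 dpi 379 of 491 positive and 2874 of 4295 other Gli1+ fibroblasts lay in cluster 1, and in Gli1- 802 of 870 and 3580 of 5701, so that the cells compared differed in cluster. Of 8 stem and adventitial genes 2 were lower in Gli1+ and 4 in Gli1- positive cells and 0 higher, beside 4.35% and 4.96% of all genes lower (median log2 ratio -0.60 and -1.0002, against -0.04 over all genes tested in Gli1+ and about 0 in Gli1-). At 21 dpi 7 and 6 were lower (medians -1.75 and -1.58), where 9.85% and 12% of all genes were. There 152 of 253 and 198 of 321 positive cells lay in the Saa3 cluster, so that positive and other cells differed in cluster, and within that cluster Dpp4 had -0.30 and -0.02 and Pi16 -0.61 and 0.73. Dpp4, a marker of fascial progenitors, had -1.21 and -2.02 at 7 dpi and -2.90 and -2.51 at 21 dpi. Pdgfra itself differed by -0.25 and -0.33 at 7 dpi.

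Inflammatory fibroblast genes parted between the time points. At 7 dpi 0 of 10 passed 2-fold in either sort (medians 0.07 and 0.04), and at 21 dpi 5 were higher and 0 lower in each (medians 1.24 and 1.11), beside 3.64% and 3.3% of all genes higher. Saa3 had 2.04 and 2.05, Mmp3 1.52 and 1.65, Cxcl5 1.504 and 1.58, Lcn2, encoding an iron-siderophore binding protein, 2.71 and 1.77, and Il1rl1, the interleukin-33 receptor gene, 1.59 and 1.62. Saa3 and Mmp3 were also among the leading genes of the cluster that held most member UMIs at that time.

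For contractile and for cell cycle genes 0 of 10 passed 2-fold at 7 dpi in each sort (contractile medians 0.25 and 0.28), close to the 1.74% and 1.73% of all genes higher and 4.35% and 4.96% lower. These shares are also the background for the osteochondral and tendon counts at 7 dpi. Of the osteochondral genes 2 of 9 (Gli1+) and 2 of 10 (Gli1-) were lower and 0 higher. Bglap, encoding osteocalcin of mature osteoblasts, had -1.44 and -4.52, whereas of the chondrogenic genes Sox9 had 0.43 and 0.53 and Acan 0.46 and 0.48, within 2-fold. Of 8 tendon genes 1 and 0 were lower at 7 dpi. At 21 dpi 3 and 2 of the tendon genes (medians -0.47 and -0.40) and 4 and 3 of 10 osteochondral genes (medians -0.80 and -0.76) were lower and 0 higher, beside 9.85% and 12% of all genes lower.

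The partners of granzymes in lymphocytes were only in part found in fibroblasts. Of 8 granule partner genes 3 were higher and 0 lower at 7 dpi than in uninjured Gli1+ fibroblasts, and 1 higher and 2 lower in Gli1-, beside 14.9% and 15.2% of genes higher and 20.4% and 16.7% lower. Ctsc, whose product activates granzymes, went from 9.57 to 56.8 CPM in Gli1+ and from 5.79 to 27.8 CPM in Gli1- (log2 ratio 2.57 and 2.27) and was at 40.3 and 40.2 CPM at 21 dpi. Srgn had Gli1+ levels of 24.2, 24.6 and 157 CPM and Gli1- levels of 39.9, 48.9 and 239 CPM, so that it was high at 21 and not at 7 dpi, with 1530 CPM in lymphocytes. At 21 dpi Srgn was at 444 CPM in positive against 132 CPM in other Gli1+ fibroblasts, and 591 against 200 CPM in Gli1-. Nkg7, a granule membrane gene, was at 103 CPM in lymphocytes and below 1 CPM in each fibroblast group.

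A list of serpin genes that includes granzyme inhibitors had 6 genes with enough UMIs at 7 dpi over uninjured. Not each of its products is known to inhibit granzymes. Of the 6 genes 2 were higher in Gli1+ and 4 in Gli1-, and 0 were lower. Over all genes 14.9% and 15.2% were higher and 20.4% and 16.7% lower. Serpina3g went from 0.25 to 8.81 CPM in Gli1+ and from 0.45 to 7.86 CPM in Gli1-. Serpinb6b, whose product inhibits granzyme A, had log2 ratios of 2.81 and 1.40. Serpinb9, the granzyme B inhibitor, stayed within 2-fold over time, with Gli1+ levels of 9.94, 15.4 and 11.3 CPM and Gli1- levels of 13.9, 18.4 and 14.1 CPM. Between positive and other cells 0 of 5 and 0 of 6 passed 2-fold at 7 dpi, close to the all-gene shares of 1.74% and 1.73% higher and 4.35% and 4.96% lower. At 21 dpi 1 of 5 was higher in Gli1+ and 0 of 5 in Gli1-, beside 3.64% and 3.3%.

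Among 3 receptor genes listed for a link to granzyme uptake (Igf2r, M6pr and Lrp1) 1 was lower at 7 dpi in Gli1+ and 0 in Gli1-, with Lrp1 at -1.15 and -0.98. These counts and those of the following lists stand beside 14.9% of all genes higher and 20.4% lower in Gli1+, and 15.2% and 16.7% in Gli1-. Of 10 genes for extracellular proteins known as granzyme substrates 5 were higher and 2 lower in Gli1+, and 3 higher and 2 lower in Gli1-. That list is not specific to Gzmc to Gzmg, and cleavage of these proteins by their products was not tested. Acan, encoding the cartilage proteoglycan aggrecan, was at 2.05, 99.5 and 144 CPM in Gli1+ fibroblasts. Fn1, encoding fibronectin, had 1.32 and 2.14, and Dcn, encoding decorin, -2.24 and -1.86. Of cytokine receptor genes 0 of 10 were higher and 4 lower in Gli1+, and 1 of 9 higher and 1 lower in Gli1-.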

How the data were processed

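Single-cell 3′ RNA libraries of 6 conditions were analysed, 1 library per condition. The values used are the deposited UMI counts per gene and cell. Per the labels' processing notes the authors used Cell Ranger 3.1.0 with STAR and mm10, while the matrix headers name version 9.0.0, so the build of the counts is uncertain and coordinates are given only as RefSeq GRCm38.p6. Protein sequences were not used here. The study's filters were applied, which require 200 genes, 1000 UMIs and a log10 gene to log10 UMI ratio of 0.7 or more and allow up to 5% mitochondrial and 5% hemoglobin UMIs. Doublets were scored with Scrublet (scanpy 1.11.5, Python 3.11.15, in place of the study's DoubletFinder), and the highest-scoring 0.8% per 1000 cells were removed.

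Levels are summed counts per 1e+06 UMIs (CPM) of a cell group, with exact Poisson intervals, and shares have exact binomial intervals. Ratios of 2 counts have intervals from the exact binomial distribution given their total, and a fold against 0 UMIs was set against 3 UMIs as a bound. All intervals cover counting error only, and they treat UMIs as independent although many come from the same cells. A gene was counted as higher or lower from a log2 ratio of 1 with at least 20 UMIs over both groups. Depth per cell group sets the precision. Cells were clustered per sort with the members, the markers and the sex genes left out (2000 variable genes, 30 components, 20 neighbours, Leiden resolution 0.5). The script for ratios and intervals was tested on simulated data.

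The members and gene lists were chosen with earlier results of these data known, and the naming of mesenchymal-like clusters, the alternatives for single members and those for cells with and without the members were chosen after seeing the data. Genes outside the lists were named by 2 rules, namely the 10 with the highest lower correlation of the 2 sorts with the Gzmc to Gzmg sum (at least 200 UMIs per sort), and the 10 with the highest and the 10 with the lowest ratio in both sorts between fibroblasts with and without a Gzmc to Gzmg UMI at 7 dpi (at least 50 UMIs in the cells with one). Neighbouring genes were the 5 on either side of the run. Alternatives covered the cell filters, doublets, the definition of fibroblasts, thinning, the top cells, TMM scaling (edgeR 4.0.16, R 4.3.3) and sex. No p-values are given because no condition has a replicate.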

Additional observations from a re-analysis of the deposited data

Results flagged for a closer look

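Gzmb had opposite directions in the 2 sorts between 7 and 21 dpi. Its log2 ratio of 21 to 7 dpi was -0.69 (-1.26 to -0.12, 45 and 70 UMIs) in Gli1+ fibroblasts and 0.38 (0.11 to 0.65, 217 and 237 UMIs) in Gli1- fibroblasts. The difference between the sorts was not tested, since each value compares 1 library with 1 library. After thinning each cell to 2000 UMIs both values were below 0, at -1.30 and -0.09.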

How the results depend on the processing

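Of 68 alternative values for the 9 main results, 38 moved by less than their counting interval and 30 moved by more. No ratio changed its sign, while the 2 shares have no direction that could change. The ratios to uninjured fibroblasts and to lymphocytes chose the members, so their kept sign says little. For Gzmc to Gzmg at 7 dpi over uninjured Gli1+ fibroblasts (a bound of 7.48 on the log2 scale) the bound was 6.95 with at least 2 Pdgfra UMIs, 4.99 after thinning, 6.97 without the 10 top cells and 5.43 in cells with Y-linked and no Xist UMIs, where fewer UMIs lower the bound by construction. The ratio of 21 to 7 dpi in Gli1+ was -1.40 in mesenchymal-like clusters, -0.54 with at least 2 Pdgfra UMIs, -1.66 after thinning, -1.31 without the top cells and -0.96 with TMM scaling. In Gli1- it was -0.74 over all barcodes, -0.97 in mesenchymal-like clusters, -0.22 with at least 2 Pdgfra UMIs, -1.30 after thinning and -0.70 without the top cells. The ratio of Gli1+ to Gli1- at 7 dpi was -0.32 with doublets kept, -0.69 with at least 2 Pdgfra UMIs and -0.51 without the top cells. Fibroblasts over lymphocytes gave 6.57 without the top cells and 4.02 in cells with Y-linked and no Xist UMIs for Gzmc to Gzmg, and -4.10 and -7.40 for Gzma and Gzmb. The share of UMIs in fibroblasts at 7 dpi was 76.4% with doublets kept, 96.8% in mesenchymal-like clusters, 41.6% with at least 2 Pdgfra UMIs, 65.1% after thinning and 67.0% without the top cells in Gli1+. In Gli1- it was 98.7%, 61.5% and 74.2% for the clusters, the stricter gate and the top cells, and 81.2% in cells with Y-linked and no Xist UMIs. A stricter or wider gate changes such a share by construction, and the cause of the other moves was not tested. Of 116 values for single members 2 reversed, both for 21 over 7 dpi in Gli1- after thinning, namely Gzmb at -0.087 (22 and 28 UMIs) and Gzmc at -0.051 (116 and 144 UMIs), and the cause was not tested. All 120 values for the genes named from positive cells at 7 dpi kept their direction. These genes were named for extreme ratios in the same cells, which the alternatives only called anew or took in part. Their kept direction was therefore nearly fixed beforehand. Values for cells with Y-linked and no Xist UMIs at 21 dpi were not given, since fewer than 50 such fibroblasts remained. No paired analysis was run. The labels give no replicate numbers and each condition has 1 library, so the sorts share a time point but no replicate of it.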

Other observations

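Around the members, the same fibroblasts changed in other gene lists between uninjured tendon and 7 dpi. Of 10 contractile and wound matrix genes 10 were higher in Gli1+ and 9 in Gli1- (median log2 ratio 4.93 and 3.69), and 9 cell cycle genes were higher in each sort. Of the inflammatory fibroblast genes 9 were higher in Gli1+ and 6 in Gli1-. These counts stand beside 14.9% and 15.2% of all genes.

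Gzmn, the granzyme gene between Gzmg and Gzmf that was not among the members, was higher in Gli1- fibroblasts with a Gzmc to Gzmg UMI at 7 dpi than in those without, by a log2 ratio of 2.12 (1.04 to 3.19, 33 UMIs). In Gli1+ the ratio was 3.02 (1.53 to 4.57) on 18 UMIs, under the minimum of 20 for a call. Gzmn was not alone in Gli1-, where 2 of the 3 granzyme genes outside the members were higher (median 1.97), beside 1.73% of all genes. The chemokine gene Xcl1, known from natural killer and T cells, had a ratio of 3.17 in Gli1+ (18 against 13 UMIs) and, under that minimum, 1.56 in Gli1-, while the chemokine gene Ccl5 had -1.76 and -2.15 at 7 dpi and 2.28 and 2.08 at 21 dpi.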
